A study of Mus musculus with 12 samples.

Results

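Of the 12 chromatin immunoprecipitation sequencing (ChIP-seq) libraries of the series, 2 are described here, those made from C2C12 myoblasts with antibodies to acetylated and to trimethylated lysine 27 of histone H3 (H3K27ac and H3K27me3). They were chosen by the antibody and the cell type in the sample labels. C2C12 is an established mouse myoblast line derived from strain C3H, which proliferates in serum and fuses into myotubes when serum is withdrawn. The myoblasts were unmodified cells of passages 15 to 18, grown with 10% serum and near-confluent. The other 10 libraries are H3K4me1, H3K4me2, H3K4me3 and H3K36me3 of the same myoblasts and all 6 marks of myotubes, which were differentiated for about 5 days and separated from unfused cells by light trypsination. There is 1 library per mark and cell type, with no replicate and no input library, so differences below are described without a test and intervals cover counting error only.

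Lysine 27 of histone H3 can carry an acetyl group or methyl groups but not both at the same time. The acetyl group is placed by p300 and CBP and is found at active promoters and enhancers. The trimethyl group is placed by EZH2 in Polycomb repressive complex 2 and is known for covering silent developmental genes, often over broad domains and preferentially at CpG-rich sequence. In cells of the muscle lineage, Polycomb is known to hold genes of other lineages and of later differentiation silent. A histone H3 tail carries 1 state, but a promoter holds several nucleosomes on 2 alleles in many cells, and bulk ChIP-seq cannot tell whether 2 marks at a promoter share a nucleosome, an allele or a cell. Nor can fewer cells with a mark be told apart from less of the mark per cell.

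The H3K27ac library held 1858771 reads and the H3K27me3 library 7016696, in a series that ranged from 1858771 to 7033100. Each promoter, taken as 2 kb either side of the transcription start site (TSS) of a protein-coding gene in the mm9 genome, was given a fold for each mark, the number of reads over the number that the mean of the library predicts for 4 kb. That mean is 2.91 reads for H3K27ac and 10.97 for H3K27me3. A promoter at 3-fold or more was called marked, which took 9 reads of H3K27ac or 33 of H3K27me3. Promoters just inside and just outside this limit had folds of 3.10 and 2.75 for H3K27ac and of 3.01 and 2.92 for H3K27me3, and 743 and 1077 promoters lay between 2.5-fold and 3.5-fold. A promoter with 0 reads has an upper 95% limit of 1.27-fold for H3K27ac and of 0.336-fold for H3K27me3.

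The classes of promoter differ in sequence, and the 200 bp before the TSS are shown for 5 of them (mm9, strand of the gene, 5′ to 3′), with each CG dinucleotide in capitals. Atf4 (chr15:80085731-80085930, plus strand), the transcription factor of the integrated stress response, was acetylated. Hoxd13 (chr2:74506167-74506366, plus strand), a limb patterning factor, and Krt78 (chr15:101784719-101784918, minus strand), a keratin, carried H3K27me3. Nefl (chr14:68701720-68701919, plus strand), the light neurofilament chain, carried both marks, and Ckm (chr7:19996243-19996442, plus strand), the creatine kinase of muscle, carried neither.
Atf4: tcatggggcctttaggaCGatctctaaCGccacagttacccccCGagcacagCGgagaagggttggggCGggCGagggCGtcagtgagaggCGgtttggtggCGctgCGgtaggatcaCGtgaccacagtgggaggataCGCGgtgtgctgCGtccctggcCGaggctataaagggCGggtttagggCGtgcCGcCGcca
Hoxd13: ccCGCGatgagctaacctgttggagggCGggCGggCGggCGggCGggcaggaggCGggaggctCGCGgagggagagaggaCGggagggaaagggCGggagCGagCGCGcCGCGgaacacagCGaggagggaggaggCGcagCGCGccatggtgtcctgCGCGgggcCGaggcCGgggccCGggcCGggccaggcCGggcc
Nefl: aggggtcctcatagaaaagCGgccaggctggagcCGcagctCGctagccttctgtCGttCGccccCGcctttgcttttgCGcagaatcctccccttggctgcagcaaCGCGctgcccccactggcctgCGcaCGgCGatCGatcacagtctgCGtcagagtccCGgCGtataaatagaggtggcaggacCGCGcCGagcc
Krt78: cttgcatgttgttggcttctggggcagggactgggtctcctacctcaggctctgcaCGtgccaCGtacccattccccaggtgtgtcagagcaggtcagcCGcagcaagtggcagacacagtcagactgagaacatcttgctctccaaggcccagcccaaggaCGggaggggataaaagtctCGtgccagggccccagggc
Ckm: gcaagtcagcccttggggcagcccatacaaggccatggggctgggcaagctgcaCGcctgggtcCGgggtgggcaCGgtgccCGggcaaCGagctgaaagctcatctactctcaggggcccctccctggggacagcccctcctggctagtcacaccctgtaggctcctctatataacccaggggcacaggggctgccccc

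These stretches hold 19 CG dinucleotides for Atf4, 28 for Hoxd13, 19 for Nefl, 5 for Krt78 and 5 for Ckm. Over all promoters the median was 16 in the 200 bp before the TSS where H3K27ac stood alone, 14 where both marks were found, 7 where H3K27me3 stood alone and 2 where neither was found. At least 10 CG dinucleotides were found at 76.7%, 68.6%, 41.0% and 13.3% of these promoters in turn, against 47.2% of all promoters. Over the 1 kb centred on the TSS the median observed-to-expected CpG ratio was 0.7525 for H3K27ac alone, 0.710 for both, 0.5045 for H3K27me3 alone and 0.223 for neither. The methylated promoters thus spanned CpG-rich ones such as Hoxd13 and CpG-poor ones such as Krt78, and 40.0% of them had a ratio over 0.6 against 78.3% of the promoters with H3K27ac alone. The part of CpG content in the read counts was not tested.

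Acetylation and methylation largely divided the promoters between them. Of 22350 promoters, 11038 (49.4%) were acetylated and 2242 (10.0%) carried H3K27me3. H3K27ac alone marked 10920 promoters, H3K27me3 alone 2124, both marks 118 (0.528%), and neither was found at 9188 (41.1%). Among acetylated promoters, 1.07% carried H3K27me3 (95% exact binomial interval 0.886 to 1.28), and among the others 18.8% did (18.1 to 19.5). Seen from the other side, 5.26% of methylated promoters were acetylated (4.38 to 6.27), against 54.3% of those without H3K27me3 (53.6 to 55). Of the promoters, 3670 lay so close to another TSS that their windows overlapped, so the counts are not of independent regions.

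H3K27me3 was rarer at higher levels of acetylation above the limit. H3K27me3 was found at 15.8% of promoters under 1-fold H3K27ac (interval 15.1 to 16.7) and at 26.5% of those from 1-fold to 3-fold (24.9 to 28.1). It was found at 2.70% of those from 3-fold to 10-fold (2.21 to 3.27), at 0.256% of those from 10-fold to 30-fold (0.140 to 0.430) and at 1 of the 1767 promoters above. The share of methylated promoters was thus higher from 1-fold to 3-fold H3K27ac, where the median was 1.38-fold, than at the lowest acetylation. Promoters to which few reads of the other 10 libraries aligned (2664) all carried neither mark, and so lower these 2 shares. How they divide between the 2 groups was not counted, so this contrast is not read as a relation between the marks. In the opposite direction the share with H3K27ac was 60.3% under 1-fold H3K27me3, 52.1% from 1-fold to 2-fold, 15.0% from 2-fold to 3-fold and 6.26% from 3-fold to 5-fold. It was 3.03% from 5-fold to 8-fold (1.89 to 4.60) and 6.25% in the 128 promoters above (2.74 to 11.9). These intervals overlap, so a change between the last 2 groups is not resolved. The acetylated promoters among the 128 include Sfi1, Gm10800 and Gm10801, which were above 3-fold in all 12 libraries. They also include the gene models Gm10717 and Gm10722, described below. As a description, Spearman's rho between the 2 folds was -0.0897 over all 22350 promoters and -0.191 over the 11305 promoters with H3K4me3 at 3-fold or more. These points share the 2 libraries and their depth.

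**Figure D1:**
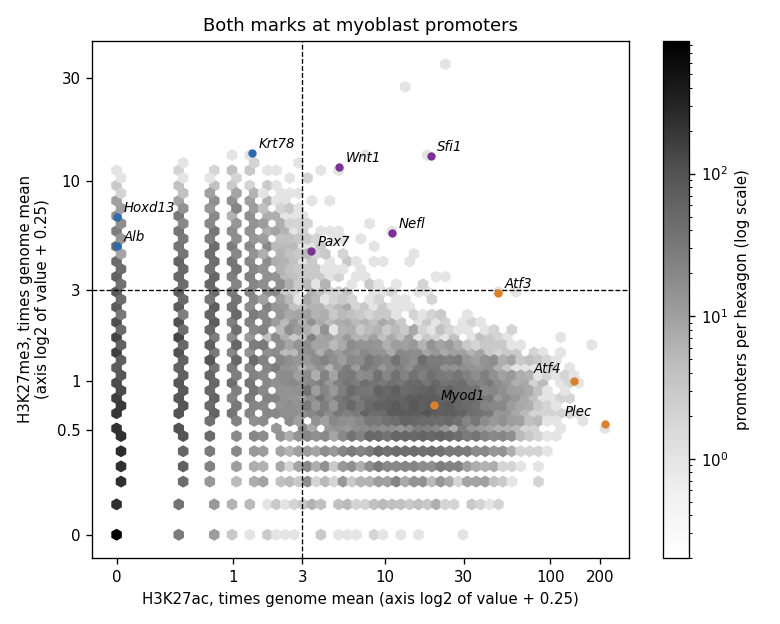
Fold of H3K27ac (horizontal) and of H3K27me3 (vertical) over the genome mean at 22350 myoblast promoters, both on log2 axes of the fold plus 0.25, with hexagons shaded by the number of promoters on a log scale and named genes coloured by class (orange H3K27ac, blue H3K27me3, purple both). Dashed lines mark 3-fold; the upper right field holds 118 promoters.

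The 8 promoters named for the most H3K27ac included those of cytoskeletal and adhesion genes. Plec, which encodes the cytoskeletal linker plectin, had 620 H3K27ac reads, a 213-fold excess (95% Poisson interval 197 to 231), and 6 H3K27me3 reads (0.547-fold). Rhob, a small GTPase of actin regulation, stood at 172-fold H3K27ac and 1.64-fold H3K27me3. Mll5, which encodes a SET domain protein, had 155-fold H3K27ac. The matricellular gene Wisp1 and the stress factor Atf4 each had 404 reads and 139-fold. The focal adhesion gene Tenc1 (137-fold), the intermediate filament gene Vim (136-fold) and the keratin gene Krt80 (132-fold) followed, with H3K27me3 between 0.638-fold and 1.002-fold at these 3. The counting intervals of the last 5 overlap, so their order is not resolved. In the 100 promoters with most H3K27ac (76.7-fold to 213-fold, promoters high in every library left out), H3K27me3 had a median of 0.820-fold and reached at most 1.64-fold. Among the 8 named, Plec, Wisp1, Tenc1 and Krt80 had CpG ratios of 0.305, 0.253, 0.138 and 0.276 while Rhob and Atf4 had 0.980 and 0.917. Plec, Wisp1, Atf4, Tenc1 and Krt80 lie on chromosome 15, as do 13 of the 100 promoters with most H3K27ac. That chromosome holds 3.57% of all promoters and had a mean of 1.61-fold H3K27ac. The part of the chromosome in this ranking was not tested.

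Among the promoters named for the most H3K27me3, Krt78 had 148 H3K27me3 reads, 13.5-fold (11.4 to 15.8), with 4 H3K27ac reads (1.38-fold). Nr2e1, a nuclear receptor of neural stem cells, had 13.2-fold H3K27me3 and 1.03-fold H3K27ac. The homeobox factor Tlx2 had 12.6-fold and 2.75-fold, and Prdm12, a factor of sensory neurons, 12.4-fold and 1.38-fold. Camk4, a kinase of neurons and T cells, had 12.2-fold H3K27me3, the cardiac factor Nkx2-5 11.9-fold with a single H3K27ac read, and the signalling ligand Wnt1 11.6-fold together with 5.16-fold H3K27ac. Their H3K27me3 intervals overlap. Sfi1, which ranked among them at 13.1-fold, was above 3-fold in all 12 libraries, with its lowest fold at 7.002, and so were 3 gene models of the Gm series, Gm10800, Gm10801 and Gm17379. Gm10800 (34.6-fold) and Gm10801 (28.0-fold) had more H3K27me3 than any other promoter. At these 4 promoters the 2 marks do not stand apart from the remaining marks, and they are kept in the counts unless said otherwise. In the 100 promoters with most H3K27me3 (8.20-fold to 13.5-fold, without such promoters), H3K27ac had a median of 1.03-fold, 5 were acetylated, 7 belonged to Hox genes and 19 to other homeobox genes.

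The range of the 2 marks differed. The 25th and 75th percentiles were 8.26-fold and 24.1-fold for H3K27ac at the promoters with H3K27ac alone, and 3.55-fold and 5.74-fold for H3K27me3 at those with H3K27me3 alone. The folds of different antibodies depend on the share of reads outside marked regions and are not compared as amounts of modification.

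The remaining marks of the myoblasts followed the classes. H3K4me3, the mark of active and CpG-rich promoters, had a median of 19.4-fold at promoters with H3K27ac alone, 6.69-fold with both, 1.15-fold with H3K27me3 alone and 0.692-fold with neither. It was at 3-fold or more at 94.9%, 83.9%, 9.04% and 7.06% of them in turn. The TSS of each gene had been chosen by its H3K4me3 reads, which favours high values in all classes. H3K4me2 was found at 38.9% of the promoters with H3K27me3 alone (826 of 2124) and at 14.7% of those with neither. H3K4me1 had its highest median, 6.07-fold, at promoters with both marks, against 3.46-fold with H3K27ac alone, 1.58-fold with H3K27me3 alone and 0.395-fold with neither. H3K36me3, the mark of transcribed gene bodies, was found at 16.8% of promoters with H3K27ac alone and at 3 of 2124 with H3K27me3 alone. The shares with H3K4me2 and with H3K4me3 come from different antibodies and are not compared with each other. At the 3-fold limit 192 of all promoters (0.859%) combined H3K27me3 with H3K4me3 without H3K27ac. This number depends on the window, since 20.3% of the promoters with H3K27me3 alone had H3K4me3 when counted 500 bp either side.

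Housekeeping and growth genes were acetylated with few exceptions. Against 49.4% of all promoters and a median H3K27ac of 2.75-fold, 79 of 83 genes of cytoplasmic ribosomal proteins were acetylated (median 19.95-fold, none with H3K27me3), and the 4 others, Rpl10l, Rpl39l, Rpl3l and Rps4y2, are paralogs. Of 39 proteasome subunits, 35 were acetylated and 2 carried H3K27me3, Psmb8 and Psmb9, which encode subunits of the interferon-induced immunoproteasome. Psmb10, which encodes another subunit of that complex, had H3K27ac alone. Psmb8 had 4.47-fold H3K27me3 and 0.344-fold H3K27ac. Of 74 subunits of the respiratory chain and ATP synthase, 69 were acetylated and 2 methylated, Cox6a2 and Cox8c, which are tissue-specific forms of cytochrome c oxidase subunits. Cox7a1 and Cox8b, also tissue-specific forms, had H3K27ac alone, and Cox6b1, Cox6b2 and Cox7b2 had neither mark. All 41 genes of DNA replication and the cell cycle (median 14.1-fold) and all 22 immediate early genes (median 56.25-fold) were acetylated, none with H3K27me3. The highest of the latter was Dusp1, a phosphatase of stress kinases, with 126-fold, and Atf3 combined 48.2-fold H3K27ac with 2.92-fold H3K27me3 (interval 1.995 to 4.12), just below the limit.

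Genes of the mesenchymal and myogenic programme were acetylated as well. Of 34 cytoskeleton and matrix genes, 32 were acetylated (median 42.7-fold), the exceptions being Cnn1 and Tagln. These are smooth muscle genes, as are Acta2 and Myl9, which were acetylated. Of 10 myoblast markers, 9 were acetylated, among them Des (78.4-fold), Cdh15 (69.5-fold), Myod1 (19.95-fold, interval 15.15 to 25.8) and Myf5 (17.9-fold, interval 13.4 to 23.5). Myod1 and Myf5, the determination factors of muscle, had 0.729-fold and 0.911-fold H3K27me3. Myog, the factor that starts differentiation, was already acetylated in myoblasts at 8.26-fold with 1.002-fold H3K27me3, and Myf6 at 4.47-fold. Of 30 myogenic regulators in all, 22 had H3K27ac alone, Eya2 and Twist1 had H3K27me3 alone (3.19-fold and 5.01-fold), and Pax7, the factor of muscle stem cells, had both (3.44-fold H3K27ac, interval 1.65 to 6.33, and 4.65-fold H3K27me3, interval 3.46 to 6.11). The related genes Twist2 and Twist1 stood on opposite sides, since Twist2 had 37.5-fold H3K27ac and 1.09-fold H3K27me3. Mef2c, Pax3, Igf2, Mstn and Cdkn1c had neither mark, and Mef2c had 2.46-fold H3K27me3 with a single H3K27ac read. Cdkn2a, which encodes cell cycle inhibitors, had 0 reads of both marks and of the 4 other myoblast marks, which allows no statement on its chromatin.

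The 4 Hox clusters split by cluster. All 10 Hoxb genes and all 9 Hoxd genes measured had H3K27me3 alone, at 5.19-fold to 11.5-fold and 6.02-fold to 9.84-fold, with H3K27ac at most 1.38-fold. In the Hoxa cluster 8 of 11 genes and in the Hoxc cluster 5 of 9 had H3K27ac alone, and none of these 20 genes had H3K27me3, whose highest values were 2.46-fold at Hoxa13 and 1.73-fold at Hoxc12. The acetylated members included Hoxa9 with 29.6-fold (interval 23.7 to 36.5) and Hoxc10 with 39.2-fold (interval 32.35 to 47.1), whereas Hoxd13 had 0 H3K27ac reads and 74 H3K27me3 reads (6.74-fold, interval 5.295 to 8.47). Hoxb9 had the most H3K27me3, 11.5-fold. The intervals of the Hoxb and Hoxd genes for H3K27me3 do not overlap those of the acetylated Hoxa and Hoxc genes. In the myotube libraries 9 of 10 Hoxb and 8 of 9 Hoxd genes remained at 3-fold H3K27me3 or more, with medians of 4.40-fold and 3.95-fold, and no Hoxa or Hoxc gene reached it. Neighbouring Hox promoters lie close together, so the genes of a cluster are not independent regions.

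**Figure D2:**
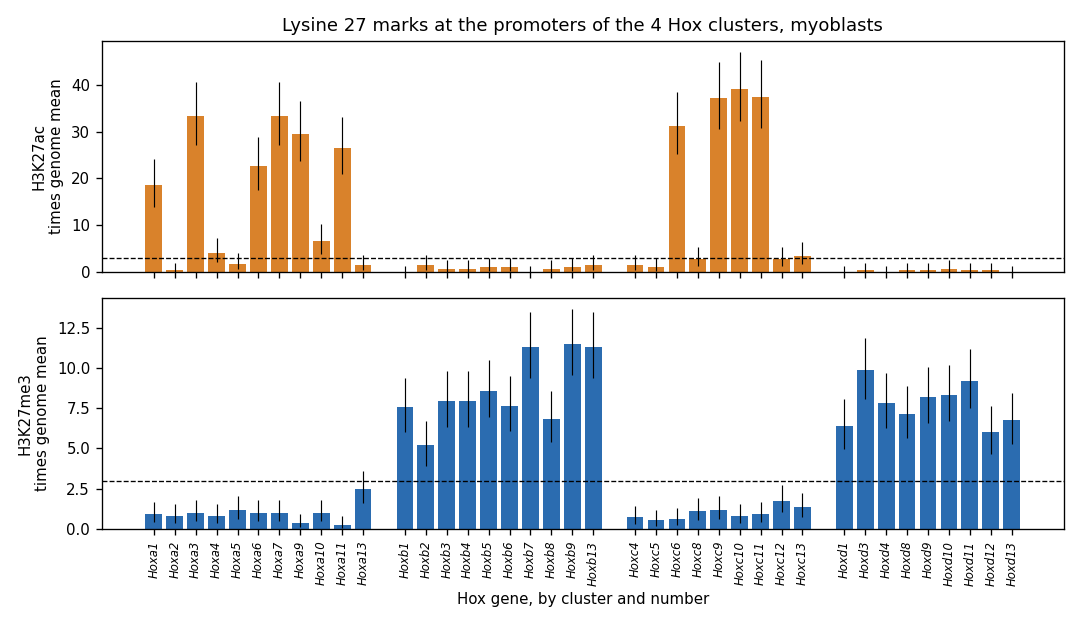
Fold of H3K27ac (upper panel) and H3K27me3 (lower panel) over the genome mean at 39 Hox promoters in myoblasts, with 95% Poisson intervals of the read counts and a dashed line at 3-fold. The Hoxb and Hoxd genes are high only in H3K27me3, at 5.19-fold or more, and 13 genes of Hoxa and Hoxc are acetylated.

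H3K27me3 lay over many regulators and effectors of other lineages, while some of them were acetylated. Of 115 other homeobox factors, 77 were methylated (median 4.65-fold, against 0.820-fold for all promoters and 10.0% methylated) and 23 acetylated, 2 of them both. The acetylated members included Six4, a factor of muscle development (31.65-fold), and Msx1, Prrx1 and Prrx2 of mesenchyme. The methylated ones included Tlx2, Nkx2-5, Pax6 of the eye and Pdx1 of the pancreas. The list was not split by lineage, however. En1, Otx1, Lhx6 and Lhx9, known from the nervous system, and Pax8 had H3K27ac alone. Msx2 and Alx4, also known from mesenchyme, had H3K27me3 alone. Of 83 Fox, Sox, Tbx and Gata factors, 34 were acetylated and 35 methylated, with Foxo3 highest in H3K27ac (55.7-fold) and Gata6 highest in H3K27me3 (10.9-fold). Gata4 was among the acetylated ones (12.4-fold, with 1.37-fold H3K27me3). Of 65 Wnt, Fgf, Bmp and related ligands, 29 were methylated and 13 acetylated. Gdf15, a stress-induced cytokine, had the highest H3K27ac (51.6-fold) and Wnt1 the highest H3K27me3. Of 174 neuronal channels and receptors, 71 were methylated and 21 acetylated, with Slc6a6, a taurine transporter also found outside neurons, highest in H3K27ac (64.7-fold) and Kcnh3 highest in H3K27me3 (11.1-fold).

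Markers of other cell types were mostly without H3K27ac, and differed in whether H3K27me3 was found. Over all promoters 49.4% were acetylated and 10.0% methylated. Of 7 liver markers, 5 were methylated, among them Alb, the serum albumin gene (0 H3K27ac reads, 4.92-fold H3K27me3), and Hnf4a (5.65-fold). Apoa1 passed the H3K27ac limit with 3.44-fold. None of the 7 blood markers measured was acetylated and 3 were methylated, with Tal1 at 7.29-fold, while Ptprc had 0.729-fold H3K27me3. None of 5 endothelial and none of 5 pluripotency markers was acetylated, and 1 of each was methylated, Kdr (4.37-fold) and Sox2 (5.01-fold). In lists of 5 genes, 1 methylated member cannot be told from the 10.0% of all promoters. Of 8 neuron markers, Gad1, Rbfox3 and Slc17a7 had H3K27me3 alone, Nefl both marks, Stmn2 H3K27ac alone (5.85-fold), and 3, Snap25 among them, had neither. In the list of adipocyte and cartilage markers Sox9 (53.3-fold) and Pparg (21.7-fold) were acetylated, Col2a1 (10.9-fold) and Acan (6.38-fold) methylated, and Cebpa carried both. Of 6 epithelial markers 2 were acetylated, the higher being Cldn4 (5.16-fold), and Esrp1 was methylated (7.75-fold). In longer lists, 11 of 23 liver and plasma genes and 9 of 23 lymphoid and myeloid genes were methylated, and 1 and 3 acetylated. The libraries thus held the chromatin of the defining myoblast markers, and no list of another cell type was acetylated throughout.

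Promoters with neither mark, 41.1% of all, included most members of a few large gene families used in few tissues. Of 1421 olfactory and vomeronasal receptor genes, 1371 had neither mark, 48 were methylated and 3 acetylated, with medians of 0 reads of H3K27ac and of 0.547-fold H3K27me3. Of 64 defensins and antimicrobial peptides, 58 had neither. Keratins and keratin-associated proteins were divided, with 66 of 96 having neither mark, 23 H3K27me3 alone and 7 H3K27ac alone. The myotube marker genes Ckm, Mb and Myh1 had neither. Of the 9188 promoters with neither mark, 7171 (78.05%) also lacked the 4 other marks at 3-fold, and 649 had H3K4me3. Sequence to which few reads of any library aligned was part of this class, since 2664 of its promoters (29.0%) held under 25% of the reads that the means of the other 10 libraries predict, while no promoter of the other 3 classes did. Of the olfactory and vomeronasal receptors 886 of 1421 fell under this limit, of the defensins 30 of 64, and of the homeobox factors none. For those receptors and defensins the files do not tell an unmarked promoter from one that reads could not be aligned to.

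**Figure D3:**
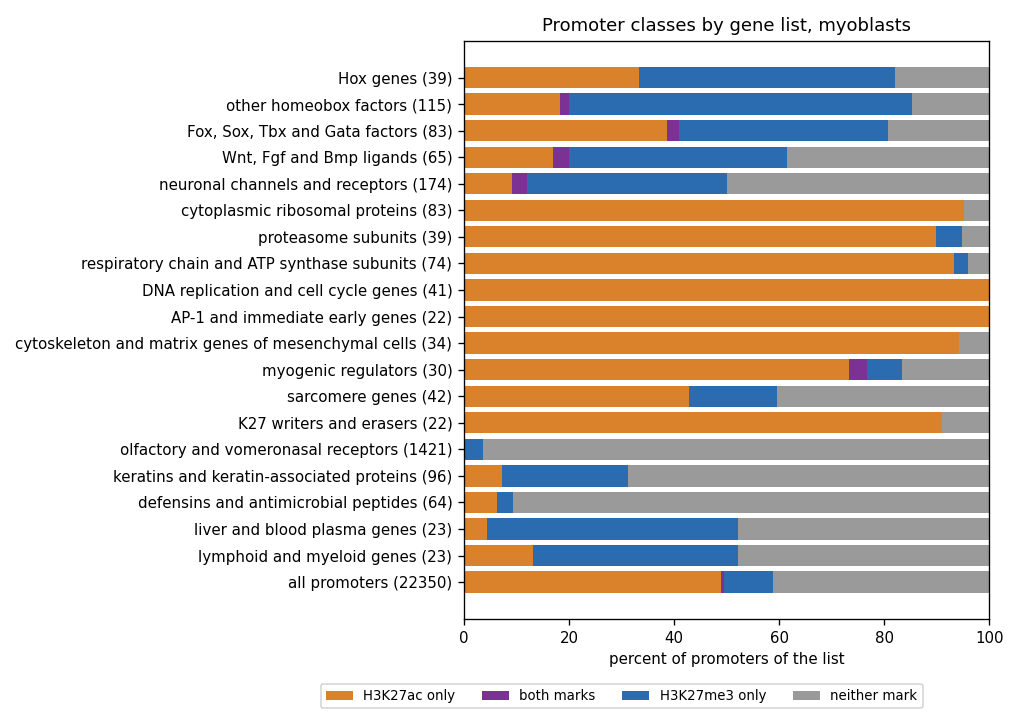
Percent of the promoters of each gene list (number of genes in brackets) with H3K27ac alone (orange), both marks (purple), H3K27me3 alone (blue) and neither (grey) in myoblasts, with all 22350 promoters in the lowest bar. Replication, immediate early and ribosomal protein genes are nearly all orange, other homeobox factors are 65.2% blue, and olfactory receptors nearly all grey.

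Promoters with both marks were few and had modest levels of each. The 118 promoters had medians of 4.13-fold H3K27ac and 3.96-fold H3K27me3, and 103 of them were under 10-fold in H3K27ac. Leaving out the 4 that were high in every library, 114 (0.510%) remained. Ranked by the lower of their 2 folds, the gene model Gm10717 came before the others (7.91-fold H3K27ac and 12.8-fold H3K27me3). It lies on chromosome 9 near Gm10722, Gm11168, Gm17535 and Gm10715 (TSS from 3000922 to 3037111), all with H3K4me3 at 12.45-fold or more. Gm10717 had 6.27-fold H3K36me3, and its lowest fold in the 12 libraries was 2.45, just below the limit. These gene models are kept among the 114. Of the named genes Nptx1 led, a neuronal pentraxin (7.57-fold H3K27ac, interval 4.74 to 11.5, and 6.38-fold H3K27me3, interval 4.97 to 8.06), before Nefl (11.0-fold and 5.65-fold). Wnt1 (5.16-fold and 11.6-fold), the brain homeobox factor Dmbx1 (5.16-fold and 5.56-fold) and the pancreatic factor Mafa (5.16-fold and 5.38-fold) followed. Rapgef3, a cAMP-activated exchange factor, Cebpa, a factor of fat and liver cells, and Pard6b, a cell polarity protein, had lower folds of 5.10, 4.83 and 4.56. The lower bounds of H3K27ac at Wnt1, Dmbx1, Mafa and Pard6b were 2.89-fold, below the limit. The single promoter above 30-fold H3K27ac was Sap130, with 63.65-fold and 3.01-fold H3K27me3. Of the 118 promoters, 17 lay on chromosome 15, which holds 3.57% of all promoters and was among the chromosomes with most reads of both marks.

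Around the TSS the 2 marks took different shapes. At promoters with H3K27ac alone, acetylation peaked 250 bp downstream at 67.5-fold, and was 4.66 times as dense within 500 bp of the TSS as from 500 bp to 2000 bp. H3K27me3 at these promoters was 0.735-fold within 500 bp, 0.859-fold in the flanks and lowest (0.620-fold) at 50 bp downstream. At promoters with H3K27me3 alone the mark was nearly flat, 4.87-fold in the centre and 4.85-fold in the flanks, and was still 3.33-fold at 4 to 5 kb. At the 114 promoters with both marks and not high in every library, acetylation again peaked 250 bp downstream (18.6-fold, centre 3.21 times the flank, interval 2.94 to 3.503), and H3K27me3 was lower in the centre than in the flanks (3.90-fold against 4.62-fold, ratio 0.844, interval 0.7915 to 0.900). Its lowest 100-bp bin within 1 kb lay 250 bp upstream at 2.65-fold and its highest 1350 bp downstream at 5.88-fold. With all 118 promoters the ratio was 1.03 (0.975 to 1.09), so the dip depends on leaving out those 4. The intervals treat reads as independent and do not cover differences between promoters.

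**Figure D4:**
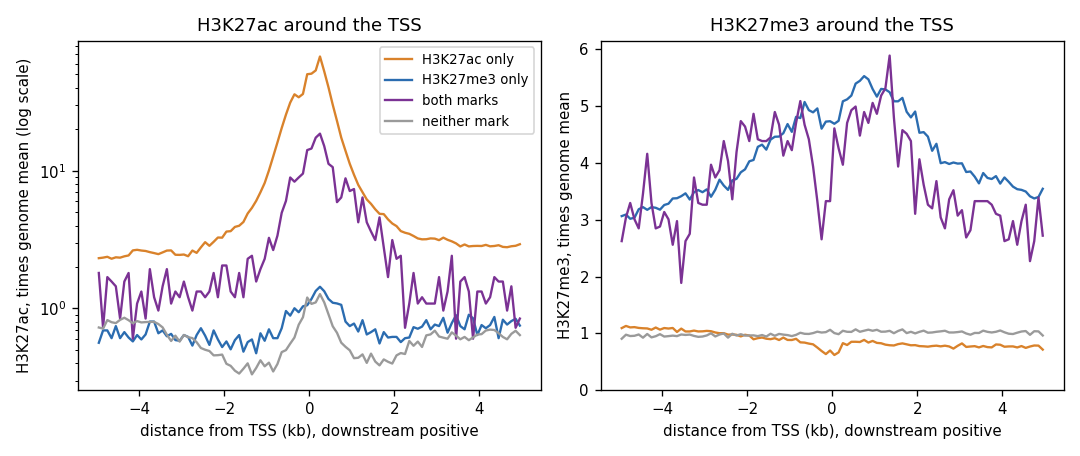
Mean fold of H3K27ac (left, log axis) and H3K27me3 (right) in 100-bp bins from 5 kb upstream to 5 kb downstream of the TSS for the 4 promoter classes, with 114 promoters in the class with both marks. H3K27ac peaks at 250 bp downstream, and H3K27me3 in the class with both marks falls to 2.65-fold at 250 bp upstream between flanks of up to 5.88-fold.

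Windows of 10 kb across chromosomes 1 to 19 and X gave the same separation on a larger scale. Of 255585 windows, 18180 (7.11%) were acetylated, 10906 (4.27%) methylated, 114 both and 226613 neither. Among acetylated windows 0.627% carried H3K27me3 (0.5175 to 0.753) and among the others 4.55% (4.46 to 4.63). The windows with H3K27ac alone took up 62.3% of all H3K27ac reads and those with H3K27me3 alone 17.3% of all H3K27me3 reads, so that most H3K27me3 reads (76.6%) fell in windows with neither. A protein-coding TSS lay in 44.0% of the windows with H3K27ac alone, in 15.2% of those with H3K27me3 alone and in 4.61% of those with neither. The median distance to a TSS was 7.60 kb, 27.5 kb and 81.6 kb. Spearman's rho between the folds was 0.338 over the windows, opposite in sign to that over promoters, as a description of points that share libraries and alignable sequence. CpG content went with both marks, at a median of 14.4, 11.2 and 6.70 CG dinucleotides per kb for H3K27ac alone, H3K27me3 alone and neither.

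Of the 114 windows with both marks, 11 were high in every library. In the other 103, the 1-kb bin with most H3K27ac was that with most H3K27me3 in 7, which is near 1 in 10, the share of a window that a bin makes up, and so shows no separation by itself. The median distance between the highest bins was 5 kb. The highest bin held a median of 53.1% of the H3K27ac reads of the window and 20.4% of the H3K27me3 reads. In the bin highest for H3K27ac, H3K27me3 stood at a median of 0.440 times its window mean, and was below the mean in 84 of 103. The counts per bin are small, so single windows are not described.

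Runs of adjacent marked windows had a median length of 10 kb for both marks, and the longest was 470 kb for H3K27me3 and 230 kb for H3K27ac. Adjacent methylated windows formed 4791 runs, 517 of at least 50 kb and 109 of at least 100 kb, and 75.1% of the windows with H3K27me3 alone had a methylated neighbour. Acetylated windows formed 11585 runs, 405 of at least 50 kb and 42 of at least 100 kb. When runs 1 window apart were joined, 755 runs of H3K27me3 and 1037 of H3K27ac reached 50 kb and 243 and 200 reached 100 kb, so the order at 50 kb turned, and the longest were 610 kb and 320 kb. Next to a window with H3K27me3 alone an acetylated window was found in 5.48% (5.05 to 5.92), against 8.94% for windows with neither. The longest methylated run, 470 kb (chr11:118400001-118870000), held the TSS of Rbfox3, a neuronal splicing factor, and of Enpp7, an intestinal sphingomyelinase, both methylated, and had 4.635-fold H3K27me3 and 0.855-fold H3K27ac. Runs of 310 kb (chr8:12210001-12520000) and of 300 kb (chr2:75120001-75420000) held, in turn, the TSS of A230072I06Rik and Gm5607, both methylated, and no protein-coding TSS. A run of 280 kb (chr15:101520001-101800000) covered 13 keratin gene models from Krt6a to Krt78, 11 of them methylated at the promoter and none acetylated. Another of 280 kb (chr5:35570001-35850000) held Adra2c, an adrenergic receptor, E130018O15Rik and Hmx1, a homeobox factor, all methylated. The Hoxd cluster, named here after its values were seen, lay in a run of 230 kb (chr2:74430001-74660000) with 11 TSS from Evx2 to Hoxd1, all methylated.

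The 5 longest acetylated runs held 4 to 16 protein-coding TSS, most of them acetylated. The longest, 230 kb (chr10:79420001-79650000), held 16 TSS, all acetylated, among them Gpx4, Stk11, Polr2e and Cirbp, at 19.65-fold H3K27ac and 0.899-fold H3K27me3. A run of 220 kb (chr15:77590001-77810000) held Myh9, the non-muscle myosin heavy chain, with Txn2, Foxred2 and Eif3d, at 21.7-fold. Of 3 runs of 180 kb, the one on chromosome 10 (chr10:80010001-80190000) held 10 TSS from Rexo1 to Izumo4, all acetylated. The one on chromosome 17 (chr17:26640001-26820000) held Dusp1, Gm8225, Ergic1 and Atp6v0e and had the highest mean of the 5 (23.0-fold), and the one on chromosome 8 (chr8:72960001-73140000) held 11 TSS, 10 of them acetylated, including Crtc1. H3K27me3 over these 5 runs ranged from 0.788-fold to 1.39-fold.

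Chromosomes differed in both marks. On the X chromosome 1.44% of windows were acetylated and 0.901% methylated, and of its 932 promoters 30.3% were acetylated and 5.47% methylated. Its mean was 0.238-fold for H3K27ac and 0.864-fold for H3K27me3, and 0.216-fold to 0.486-fold for the 3 H3K4 methylation marks and 0.327-fold for H3K36me3. In X windows with neither mark the mean was 0.150-fold for H3K27ac, the lowest of all chromosomes, and 0.833-fold for H3K27me3. Chromosomes 11, 15 and 19 were high in both marks, with 1.71-fold, 1.61-fold and 1.47-fold H3K27ac and 1.26-fold, 1.24-fold and 1.21-fold H3K27me3. In their windows with neither mark H3K27ac was 0.567-fold, 0.495-fold and 0.483-fold and H3K27me3 1.03-fold, 0.990-fold and 1.01-fold.

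The classes of the myoblast promoters were followed into the myotube libraries with the same limit. Of the promoters with H3K27ac alone, 84.1% kept that class (83.4 to 84.8), 15.6% had neither mark and 18 had H3K27me3 alone. Of those with H3K27me3 alone, 58.5% kept it (56.4 to 60.6), 38.3% had neither and 57 (2.68%) had H3K27ac alone. The 118 promoters with both marks went to H3K27ac alone (38), to H3K27me3 alone (40), to neither (35) and stayed in 5. The myotube libraries differ in depth from the myoblast ones (4725910 reads for H3K27ac and 5016019 for H3K27me3), and over all promoters they gave 9698 acetylated and 1537 with H3K27me3 alone. Whether a move to neither reflects the promoter or the library as a whole cannot be told apart. In myotubes 0.278% of acetylated promoters carried H3K27me3 and 12.1% of the others did.

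Genes of the contractile apparatus were among the promoters that went from H3K27me3 to H3K27ac. In myoblasts 18 of 42 sarcomere genes had H3K27ac alone, 7 H3K27me3 alone and 17 neither, where all promoters had 48.9%, 9.50% and 41.1%, so that the shares with H3K27ac alone and with neither were near those of all promoters. In myotubes 35 of the 42 were acetylated, against 9698 of all 22350, with the median H3K27ac at 1.89-fold and 30.9-fold. Acta1, skeletal actin, had 4.10-fold H3K27me3 and 2.75-fold H3K27ac in myoblasts and 1.15-fold and 103-fold in myotubes. Myh3, embryonic myosin, went from 3.83-fold H3K27me3 and 1.03-fold H3K27ac to 1.403-fold and 44.9-fold, and Actn2, the alpha-actinin of the Z disc, from 3.28-fold and 0 reads to 0.638-fold and 21.5-fold. Myh7 was the other sarcomere gene to exchange the marks. Myl2 had 6.835-fold H3K27me3 in myoblasts and carried both marks in myotubes (4.85-fold H3K27me3 and 6.225-fold H3K27ac). Rbm24, an RNA-binding protein of muscle, Unc45b, a myosin chaperone, and Smpx, a small muscle protein, also had H3K27me3 alone in myoblasts. They had H3K27ac alone in myotubes, at 34.5-fold, 18.0-fold and 21.4-fold, and are named here after their values were seen. Their myoblast H3K27me3 was 3.28-fold (interval 2.30 to 4.54), 3.01-fold (2.07 to 4.22) and 3.83-fold (2.76 to 5.17), with lower bounds below the limit. The lower bounds at Acta1, Myh3, Actn2 and Myh7 (2.99-fold, 2.76-fold, 2.30-fold and 2.99-fold) were below it as well. Myog rose from 8.26-fold to 58.1-fold H3K27ac without H3K27me3 at either stage (1.002-fold and 1.02-fold), and Mef2c from 0.344-fold to 13.8-fold. In the opposite direction Syt13, a synaptotagmin, went from 30.6-fold H3K27ac to 1.08-fold and to 3.06-fold H3K27me3, just above the limit. It was among the 18 of 10920 promoters with that change and is named here after its values were seen. No Hox or other homeobox gene among the methylated ones was acetylated in myotubes. This is not particular to them, since 2.68% of all promoters with H3K27me3 alone went to H3K27ac alone. None of the 23 keratin promoters with H3K27me3 alone was acetylated in myotubes either.

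**Figure D5:**
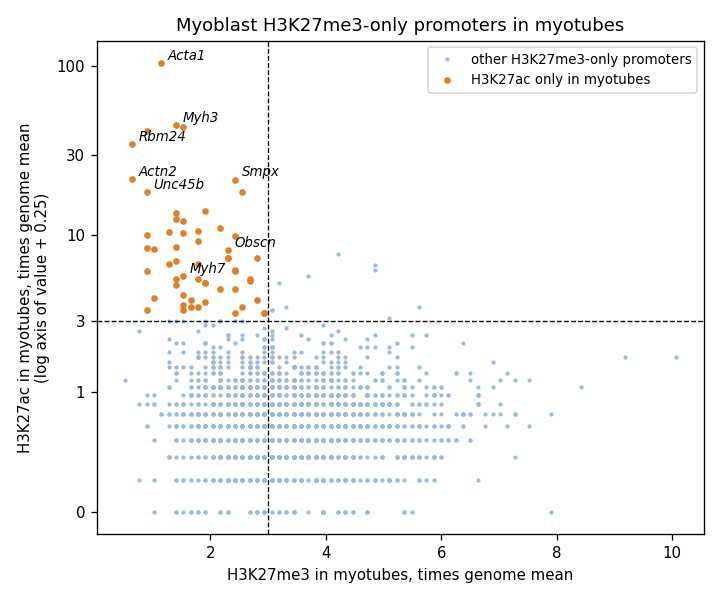
Fold of H3K27me3 (horizontal) and H3K27ac (vertical, log axis of the fold plus 0.25) in myotubes at the 2124 promoters that had H3K27me3 alone in myoblasts, with dashed lines at 3-fold. The 57 orange points had H3K27ac alone in myotubes, with Acta1 highest at 103-fold.

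Genes of the lysine 27 machinery were mostly acetylated themselves. Of 22 genes of writers, erasers and readers, 20 had H3K27ac alone and none had H3K27me3, against 48.9% and 10.0% of all promoters. The methyltransferase Ezh2 and its partners Suz12 and Eed had 27.2-fold, 19.3-fold and 29.6-fold H3K27ac, the acetyltransferases Ep300 and Crebbp 35.1-fold and 13.1-fold, and the demethylases Kdm6a and Kdm6b 26.15-fold and 16.9-fold. The 2 below the limit were Ezh1 (2.41-fold) and Hdac1 (2.75-fold), which had 8.53-fold and 14.1-fold H3K4me3. The highest H3K27me3 of the list was at Cbx8 (2.55-fold), a Polycomb reader, beside 12.4-fold H3K27ac.

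The deposited peak lists of the 2 samples carry each other's mark in their names and in their reads. The 34662 peaks of chromosomes 1 to 19 and X deposited with the H3K27me3 sample held 36.4-fold H3K27ac and 0.804-fold H3K27me3, and the 17994 deposited with the H3K27ac sample held 0.588-fold and 6.76-fold. The former set met 94.2% of the promoters with H3K27ac alone, and the latter 55.7% of those with H3K27me3 alone. The folds above were computed from the reads, in which Myod1, Des and Actb (99.4-fold) were high in the H3K27ac library and Hoxd13 in the H3K27me3 library.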

How the data were processed

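ChIP-seq of histone marks was made in C2C12 myoblasts and myotubes, with libraries of fragments of about 250 bp amplified for 15 cycles. Per the study's methods the authors aligned the reads to mm9 with Mosaik, and they deposited 1 line per aligned read (34 bp, a read count of 1 each) and MACS peak lists whose score runs from 50 upwards in the deposited files. How many runs were merged in a library is not given in the sources used here. All reads were used, extended to 150 bp in their direction and counted by their midpoint on chromosomes 1 to 19 and X, where 99.9% of the reads of both libraries lie. Of the reads, 2.23% (H3K27ac) and 0.632% (H3K27me3) shared position and strand with another. Folds were taken over the library mean per base that is not N. Each of 22350 protein-coding genes of GENCODE M1, whose NCBIM37 genome has the mm9 chromosome lengths, was given the TSS with most H3K4me3 reads within 1 kb in both cell types. Where a list held a symbol more than once, the entry with most H3K4me3 was kept. Windows of 10 kb needed at least 50% of bases that are not N. Intervals are 95% exact Poisson (folds) and exact binomial (shares and ratios of densities). PCR reads are not independent molecules, so intervals and limits for 0 reads cover counting error only. With 1 library per mark and cell type no test was made. The scripts were tested on simulated counts. Named genes are the 8 highest promoters for H3K27ac, for H3K27me3 and for both (by the lower fold), passing over a TSS within 4 kb of one already named and genes without a proper symbol, plus a fixed set of muscle, Hox and control genes, the genes of the 5 longest runs of each mark, and the highest member of each gene list. A few genes that this rule names are not reported here. The members and lists were chosen with earlier results of these data known. Alternatives changed the limit (2-fold and 5-fold), the background, duplicates, depth, TSS, window size and read extension, and used the peak lists. The 10 other peak lists were not used. Counting and intervals used Python 3.11.15 (scipy 1.17.1, numpy 2.4.6), tables pandas 2.3.3 and plots matplotlib 3.10.9.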

Additional observations from a re-analysis of the deposited data

How the results depend on the processing

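In all 14 alternatives for promoters and all 11 for 10 kb windows H3K27me3 was less frequent among acetylated regions than among the others, with a ratio from 3.38 (median window as background) to 63.0 (5-fold limit) against 17.6 for promoters, and from 1.77 to 10.0 against 7.25 for windows. Some of these alternatives could not turn the direction. The limit of 25% of the predicted reads removed only regions with neither mark, as did that of 50% of the median reads at windows. Leaving out regions high in all 12 libraries removed only regions with both marks. The 2 settings with peak lists hold the same counts with the marks exchanged. The sizes depended on the limit. At 2-fold there were 653 promoters with both marks (5.44% of acetylated, 30.7% of other promoters with H3K27me3) and 810 windows (3.24% and 11.4%), with 26260 windows of H3K27me3 alone. At 5-fold there were 10 promoters with both and 810 with H3K27me3 alone (0.102% and 6.44%), and 12 windows with both, 1737 with H3K27me3 alone and 11451 with H3K27ac alone (0.105% and 0.7115%). With the median window as background there were 924 promoters with both (6.98% and 23.6%), and 1920 windows with both, 18585 with H3K27me3 alone and 37510 with H3K27ac alone (4.87% and 8.60%). Thinning the H3K27me3 library to the H3K27ac size gave 1.57% and 19.6% at promoters and 5.08% of other windows. Counting 500 bp either side gave 259 promoters with both (2.20%). Keeping regions with at least 50% of the median reads of the other 10 libraries left 791 promoters with H3K27me3 alone and 1652 with neither (32.4% of the others), and 6.28% of other windows. With peak overlap in place of folds there were 71 promoters with both. Taken as deposited, the lists gave 1337 with H3K27ac alone and 10489 with H3K27me3 alone (5.04% and 50.1%), and exchanged, 1337 with H3K27me3 alone (0.672% and 11.3%). Windows of 5 kb numbered 30817, 22871, 206 and 457272 (H3K27ac alone, H3K27me3 alone, both, neither; 4.76% of the others) and those of 20 kb 10451 and 4941 with 112306 neither (4.21%), since their size changes their number. A further 3 settings were chosen after seeing the data. At least 25% of the reads predicted from the other 10 libraries gave 24.6% of other promoters and 6.28% of other windows, scaling by the background of each chromosome gave 0.873% of acetylated promoters and 4.46% of other windows, and leaving out the 4 promoters high in all 12 libraries moved the centre-to-flank ratio of H3K27me3 from 1.03 to 0.844. Of promoters with H3K27me3 alone, 20.3% had H3K4me3 when counted 500 bp either side and 3.01% at 5-fold. Where no construction is named the cause was not tested. The other 100 values stayed within 1.5 times the reported count or within its interval. No paired analysis was possible because each mark and cell type has 1 library. At 2.91 expected H3K27ac reads per promoter, differences near the limit are not resolved.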
